A study of Mus musculus with 7 samples.

Results

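The genes described here are 43 genes of DNA replication and deoxynucleotide synthesis, out of 43629 genes in the count file. They were chosen by gene symbol from textbook knowledge of the replication machinery and grouped by the complex to which their products belong. All 43 matched an Ensembl gene, had counts in every library and passed the filter on low counts that left 18426 genes for testing. At each origin of replication, the origin recognition complex, Cdc6 and Cdt1 load the ring-shaped MCM helicase in G1 phase, and Mcm10, Cdc45 and the GINS complex switch it on in S phase. Polymerase alpha-primase then lays down primers, polymerases delta and epsilon extend them on the sliding clamp PCNA, which the RFC complex loads, RPA covers single-stranded DNA, and Fen1 and Lig1 join the lagging-strand fragments. Ribonucleotide reductase, made of Rrm1 and Rrm2, and thymidylate synthase, the product of Tyms, supply the deoxynucleotides. Many of these genes are textbook targets of E2F transcription factors, and mouse embryonic stem (ES) cells are known for rapid division with a short G1 phase.

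The study sequenced poly(A) RNA from 7 libraries of E14 mouse ES cells and their derivatives, before and after differentiation towards extra-embryonic endoderm (XEN), with and without the Argonaute gene Ago2. KO ESC are Ago2-knockout ES cells of the lines C4 (1 library) and 5-3 (2 libraries, 5-3_1 and 5-3_2), kept undifferentiated on gelatine with serum and LIF. WT XEN are wild-type E14 cells (libraries A and B), and KO XEN are knockout cells of the lines C4 and 5-3 (1 library each). Both XEN groups spent 5 days in RPMI medium with serum, activin A at 10 ng/mL and all-trans retinoic acid at 0.1 µM. Wild-type ES cells were not analysed here, so that WT XEN and KO ESC differ in genotype and in state at once. All values below are in the order C4, 5-3_1 and 5-3_2 for KO ESC, A and B for WT XEN, and C4 and 5-3 for KO XEN. The unit of levels is CPM, counts relative to library sizes scaled with TMM, a method that assumes most genes unchanged. Tests are edgeR's quasi-likelihood test with Benjamini-Hochberg adjustment over 18426 genes, and called means an adjusted p below 0.05. Whether the libraries come from separate cultures is not said in the labels, so p-values measure only the spread between these libraries, which may be technical.

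Total counts ran from 13941826 (KO XEN C4) to 48650113 (KO ESC 5-3_2). Ago2 was at 94.4, 9.37 and 9.65 CPM in the KO ESC libraries, 394 and 432 CPM in those of WT XEN and 122 and 9.94 CPM in those of KO XEN, so the library labelled C4 in either state held more Ago2 RNA than those of line 5-3. Its difference between KO XEN and WT XEN was not past edgeR's quasi-likelihood test (adjusted p = 0.145). The summed level of 8 extra-embryonic endoderm markers was 20302 to 28325 CPM in WT XEN, 529 to 993 CPM in KO XEN and 139 to 174 CPM in KO ESC, and that of 7 mesenchymal markers was 583 to 1381, 6665 to 8569 and 27.8 to 29.0 CPM. Most of the endoderm marker sum in WT XEN came from Lama1 (9071 and 16467 CPM) and Cubn (8229 and 8323 CPM). Of the XEN markers, 7 of 8 were called lower in KO XEN relative to WT XEN, while Gata6 (-1.05, adjusted p = 0.245 by edgeR) was not past the test there. Against KO ESC, Gata6 (6.27), Foxa2 (5.23), Dab2 (4.85), Gata4 (4.04) and Sox17 (2.77) were called higher in KO XEN. Cubn (2.10), Lama1 (0.78) and Sox7 (0.24) were not past the test against KO ESC. Of the mesenchymal ones, 5 of 7 were called higher in KO XEN than in WT XEN, Col1a2 was lower (-2.06) and Thy1 was not past the test (-0.25), and Acta2, Col1a1 and Col3a1 had the highest levels in KO XEN. Of the markers, Col3a1 was at 0 in KO ESC, Hbb-bt in all 3 groups and Ptprc in KO XEN. The 6 ES cell markers summed to 4432 to 4718 CPM in KO ESC, 724 to 787 in WT XEN and 16.6 to 36.7 in KO XEN. Neural markers (5 genes) summed to 70.7 to 77.6, 19.6 to 26.8 and 105 to 127 CPM in the same order, and blood and endothelial markers (5 genes) to 74.3 to 102, 6.47 to 11.2 and 1.63 to 1.81 CPM. Most of these sums in KO ESC came from single genes, Tubb3 (53.5, 63.2 and 54.1 CPM) and Pecam1 (99.7, 73.9 and 72.5 CPM). The endothelial gene Cdh5 was highest in WT XEN (5.67 and 4.81 CPM). Mitochondrial transcripts held 2.79% to 3.26% of counts in KO ESC, against 1.94% and 2.64% for WT XEN and 0.781% and 0.979% for KO XEN. The part of these differences between the groups in the results below was not tested.

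Most replication genes were lowest in KO XEN. Between KO XEN and WT XEN, which share the differentiation and differ in genotype, 28 of the 43 genes were called lower, 4 higher (Rpa1, Rrm1, Rfc3 and Pold2) and 11 were not past the test. Over all genes 46.2% were called in this comparison, 23.9% lower and 22.3% higher, against 65.1% of the 43 lower. Their median log2 fold change was -0.76, where the median of all genes was 0. Between KO XEN and KO ESC, which differ in differentiation on a knockout background, 40 of the 43 were called lower (93.0%) and 0 higher, with a median of -1.88. Over all genes 69% were called there, 34.3% lower and 34.8% higher, with a median of -0.08. In WT XEN against KO ESC 35 were called lower (81.4%) and 0 higher, with a median of -1.22, against 62.5% of all genes called, 30.3% lower and 32.2% higher, with a median of -0.03. With a 2-fold minimum, 15 genes were lower and 1 higher in KO XEN relative to WT XEN (18.4% and 16.8% of all genes), 37 and 0 in KO XEN relative to KO ESC (28.1% and 28.8%), and 27 and 0 in WT XEN relative to KO ESC (22.3% and 25.9%). The libraries of the groups did not overlap, with lower and higher values, in 35 and 6 genes (38.3% and 38.2% of all genes), in 40 and 0 (41.2% and 39.8%), and in 36 and 1 (37.7% and 38.4%), in the same order of comparisons. The 3 comparisons share libraries, so their calls are not independent of each other, also where they are combined below. In RNA from bulk cultures, fewer cells of a type and less RNA per cell cannot be told apart.

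The 43 genes together took 7405, 8670 and 8768 CPM in the KO ESC libraries, 3102 and 3241 CPM in those of WT XEN and 2183 and 2383 CPM in those of KO XEN. The groups did not overlap in this sum, and the range within a group was narrow beside the distance between KO ESC and the others. For 29 of the 43 genes (67.4%) every KO ESC library lay above every WT XEN library and every WT XEN library above every KO XEN library, an order found in 13.2% of all genes. Both differences, WT XEN below KO ESC and KO XEN below WT XEN, were called for 23 genes (53.5%), against 6.82% of all genes. Both KO XEN libraries lay below the other 5 in 34 genes (79.1%), against 24.3%. The 4 genes that were lower in WT XEN than in KO ESC and higher in KO XEN than in WT XEN make up 9.30%, near the 6.23% of all genes with that pattern.

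**Figure D1:**
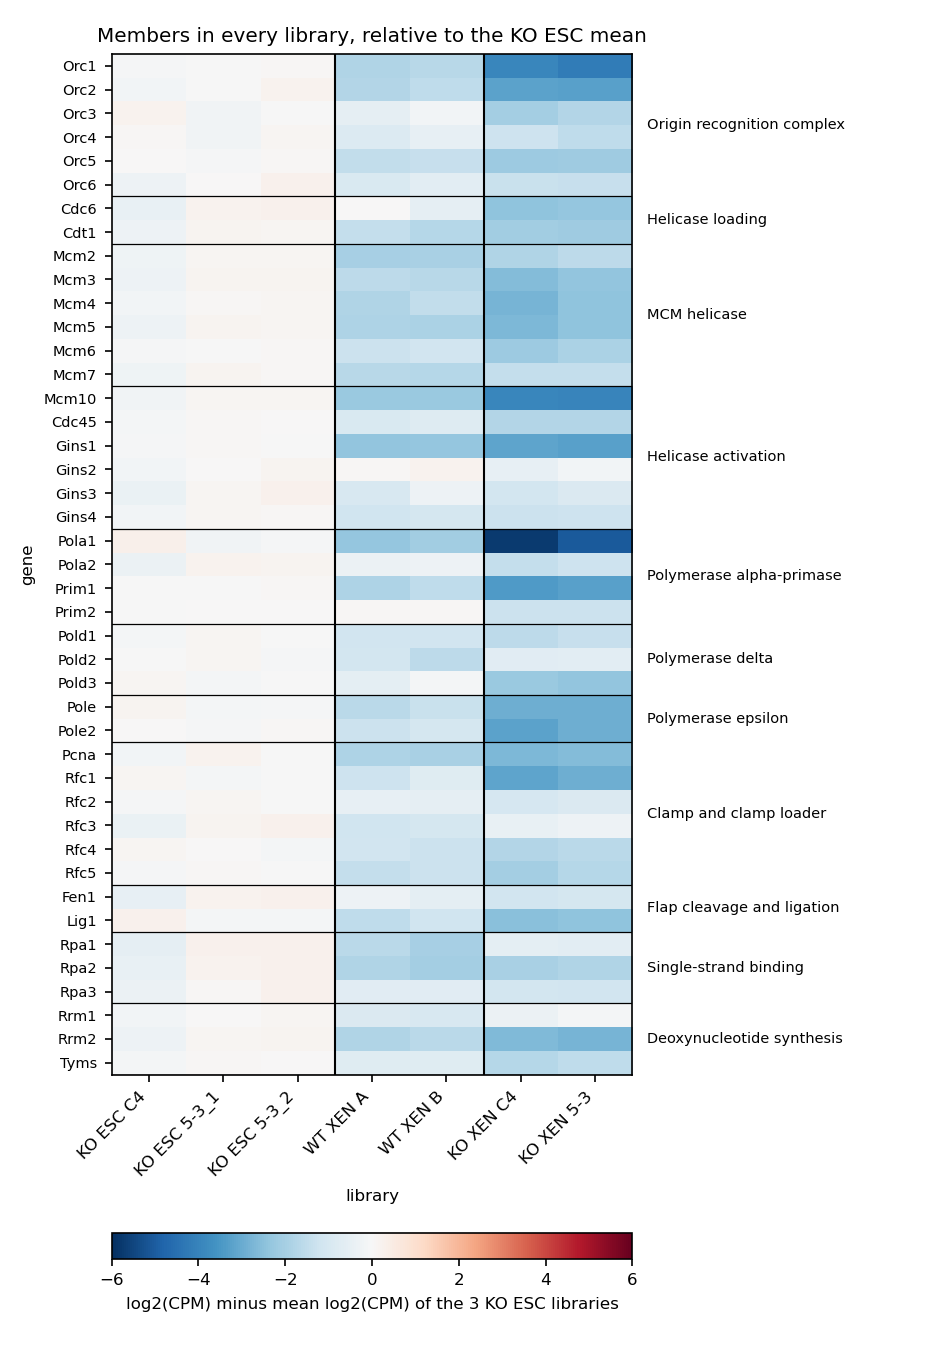
The heat map shows log2 CPM of each of the 43 genes (vertical axis, grouped by complex) in each of the 7 libraries (horizontal axis), minus the mean log2 CPM of the 3 KO ESC libraries, with blue for lower and red for higher values. Most genes are pale in KO ESC, mid-blue in WT XEN and darkest in KO XEN, with Pola1, Orc1 and Mcm10 darkest, while Rpa1, Rrm1, Rfc3 and Pold2 are paler in KO XEN than in WT XEN.

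Since most of these genes were lower in both XEN groups than in KO ESC, their promoters were read for E2F and CCAAT letters. RefSeq windows of 300 bases (GRCm38.p6, from 250 bases before to 50 after each start) were at hand for 36 of the 43 genes, and not for Pole, Gins1, Gins2, Gins4, Prim2, Rfc2 and Mcm4. The letters TTTCCCGC or TTTGGCGC, on either strand, stood in the windows of 13 of 36 genes (36.1%): Cdc6, Cdt1, Gins3, Mcm3, Mcm5, Mcm6, Mcm7, Orc3, Pola1, Pold1, Pold3, Pole2 and Rfc3. They stood in 3.16% of 12474 tested genes with a window and in 1.80% of all 27025. Each counted whether or not the other was there, TTTCCCGC was in 22.2% and TTTGGCGC in 16.7% of the 36 genes, against 2.19% and 1.01% of tested genes. Mcm3 holds both. The letters CCAAT, added after the data were seen and overlapping neither, were in 23 of 36 (63.9%), against 42.4% of tested genes. The stretches that follow lie upstream of the RefSeq start and in no GENCODE exon, on the gene's strand, with these letters in capitals (reverse complements GCGGGAAA, GCGCCAAA and ATTGG). The stretch of Cdc6 begins 181 bases inside the GENCODE gene, which starts further upstream, so that it is intronic there, and the others lie in no GENCODE gene. The genes shown were picked by hand and by no rule. Pola1 and Cdc6 are among the genes with the largest decreases in KO XEN against WT XEN, while Cdc6 (-2.40) is not among them against KO ESC. Mcm5 and Mcm6 have 1 and 2 E2F matches. Of other genes with large decreases against WT XEN, Orc1 (-2.32), Rfc1 (-2.06), Mcm10 (-1.72) and Prim1 (-1.64) have no E2F match. Pold3 (-1.96) and Pole2 (-1.89) have 1 each. The stretches of Rrm2, Rrm1 and Rpa1 hold CCAAT and no E2F match, although Rrm2 was lower and Rrm1 and Rpa1 higher in KO XEN relative to WT XEN.
Pola1 (chrX:93632156-93632325, minus strand, GRCm38.p6): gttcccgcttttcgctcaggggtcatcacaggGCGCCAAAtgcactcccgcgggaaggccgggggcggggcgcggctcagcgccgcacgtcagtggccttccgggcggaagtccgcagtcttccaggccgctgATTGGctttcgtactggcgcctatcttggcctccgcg
Cdc6 (chr11:98907982-98908150, plus strand, GRCm38.p6): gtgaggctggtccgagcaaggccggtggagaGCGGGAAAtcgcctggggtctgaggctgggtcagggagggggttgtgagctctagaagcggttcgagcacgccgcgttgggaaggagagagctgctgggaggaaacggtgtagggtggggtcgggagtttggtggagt
Mcm5 (chr8:75109339-75109508, plus strand, GRCm38.p6): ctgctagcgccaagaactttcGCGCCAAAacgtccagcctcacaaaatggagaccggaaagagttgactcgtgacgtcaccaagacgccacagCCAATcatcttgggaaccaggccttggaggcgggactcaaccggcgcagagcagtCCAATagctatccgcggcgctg
Mcm6 (chr1:128359706-128359875, minus strand, GRCm38.p6): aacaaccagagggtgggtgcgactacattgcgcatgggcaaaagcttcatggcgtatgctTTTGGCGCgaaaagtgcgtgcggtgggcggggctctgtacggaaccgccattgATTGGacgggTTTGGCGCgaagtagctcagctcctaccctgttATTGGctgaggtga
Rrm2 (chr12:24708084-24708240, plus strand, GRCm38.p6): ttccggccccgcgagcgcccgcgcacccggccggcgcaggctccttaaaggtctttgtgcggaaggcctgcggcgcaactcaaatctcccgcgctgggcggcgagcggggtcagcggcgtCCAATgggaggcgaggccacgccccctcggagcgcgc
Rrm1 (chr7:102441525-102441694, plus strand, GRCm38.p6): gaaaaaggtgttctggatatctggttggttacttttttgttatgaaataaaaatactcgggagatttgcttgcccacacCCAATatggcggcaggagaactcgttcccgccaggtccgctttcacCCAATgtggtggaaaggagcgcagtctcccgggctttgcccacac
Rpa1 (chr11:75348384-75348432, minus strand, GRCm38.p6): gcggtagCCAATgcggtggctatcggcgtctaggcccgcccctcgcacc

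Of the 13 genes with an E2F match, 8 were called lower and 1 (Rfc3) higher in KO XEN than in WT XEN, with a median log2 fold change of -0.83, and of the 23 without a match 15 were called lower and 3 higher, with a median of -0.74. Against KO ESC, 12 of 13 and 22 of 23 were lower in KO XEN, and 9 of 13 and 21 of 23 in WT XEN. Of all genes, 23.9% were called lower in KO XEN against WT XEN, 34.3% in KO XEN against KO ESC and 30.3% in WT XEN against KO ESC. A match describes these letters in this window only.

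The origin recognition complex, which marks origins, had 5 of 6 genes called lower in KO XEN relative to WT XEN, with a median log2 fold change of -1.14. Orc1 (chromosome 4, 108579423 to 108614833, GRCm38 here and below), an ATPase subunit, stood at 143, 148 and 155 CPM in the KO ESC libraries, 42.8 and 47.0 CPM in those of WT XEN and 10.0 and 8.12 CPM in those of KO XEN. The 3 groups were far apart, and the values within each were close. Its change was log2 fold change -2.32 ± 0.17 (SE), adjusted p = 0.000153, edgeR against WT XEN, a 4.98-fold decrease, and log2 fold change -4.05 ± 0.17 (SE), adjusted p = 1.62e-06, edgeR against KO ESC, a 16.5-fold decrease. Orc2 (-1.62) and Orc3 (-1.54) were lower too, followed by Orc4 (-0.74) and Orc5 (-0.70). Orc6, a subunit outside the ATPase core, was at -0.60 with an adjusted p of 0.0507 (edgeR), just not past the test, and passed in 6 of 16 alternatives, with line as a block (adjusted p = 0.0439) and without KO ESC library C4 (-0.67) or 5-3_2 (-0.67) or WT XEN library A (-0.82) among them. All 6 were lower in KO XEN than in KO ESC, and all but Orc3 (-0.35, adjusted p = 0.143 by edgeR) in WT XEN than in KO ESC. Orc3, Orc4 and Orc5 are poor in GC (38.6%, 36.8% and 38.2% of the longest transcript). With the GC content of each gene in the fit, an alternative added after the data were seen, their changes against WT XEN became -0.41 (not called), 0.55 (called higher) and 0.46 (not called). Against KO ESC, Orc3 became -0.27 (not called) and Orc4 0.53 (called higher) in KO XEN, and Orc4 -0.02 (not called) in WT XEN. Without WT XEN library B or KO XEN library 5-3, Orc4 was -0.58 (adjusted p = 0.0932) and -0.68 (adjusted p = 0.0803) against WT XEN by edgeR, and without WT XEN library A Orc4 and Orc6 lost their calls in WT XEN against KO ESC (-0.47 and -0.60).

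Of the loading factors, Cdc6 was called lower in KO XEN against WT XEN and Cdt1 in WT XEN against KO ESC, and the difference between the 2 genes was not tested. Cdc6 (chromosome 11, 98907801 to 98923940), the ATPase that brings the helicase to the origin complex, stood at 74.1, 117 and 122 CPM in the KO ESC libraries, 104 and 69.5 CPM in those of WT XEN and 19.3 and 20.4 CPM in those of KO XEN. The WT XEN values lay within the KO ESC range or just under it, and the KO XEN values were well under both. It was lower in KO XEN relative to WT XEN (log2 fold change -2.13 ± 0.29 (SE), adjusted p = 0.000977, edgeR), while WT XEN against KO ESC gave -0.26 (adjusted p = 0.392), not past edgeR's test, and 0.01 without WT XEN library B. Cdt1, the partner that carries the helicase, was lower in WT XEN than in KO ESC (-1.57), and its -0.54 between KO XEN and WT XEN missed the threshold (adjusted p = 0.0513 by edgeR), which it passed in 6 of 16 alternatives. Among these were line as a block (adjusted p = 0.0438), GC content in the fit (-1.09, adjusted p = 0.000744) and leaving out KO ESC library C4 (-0.62, adjusted p = 0.00967), all by edgeR.

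The 6 genes of the MCM helicase were all lower in both XEN groups than in KO ESC, with log2 fold changes of -1.21 (Mcm6) to -1.98 (Mcm2) in WT XEN and -1.44 (Mcm7) to -2.58 (Mcm4) in KO XEN. Between KO XEN and WT XEN they did not move as a unit. Mcm6 (chromosome 1, 128331590 to 128359664), whose promoter is shown above, stood at 479, 496 and 517 CPM in the KO ESC libraries, 203 and 227 CPM in those of WT XEN and 110.3 and 131 CPM in those of KO XEN. Each group lay apart from the next, and KO XEN was lower than WT XEN (log2 fold change -0.83 ± 0.15 (SE), adjusted p = 0.00347, edgeR). Mcm3 (-0.87), Mcm4 (-0.94) and Mcm5 (-0.65) were lower as well. Mcm2 and Mcm7 were not past the test, with log2 fold changes of 0.30 (adjusted p = 0.194) and 0.24 (adjusted p = 0.275) by edgeR. Their KO XEN values, 131 and 154 CPM for Mcm2 and 175 and 179 CPM for Mcm7, all lay above those of WT XEN, at 113 and 118 CPM and at 153 and 147 CPM. Mcm7 turned to -0.04 with GC content in the fit. Mcm3 lost its call without KO XEN library C4 (-0.75, adjusted p = 0.0652), and Mcm5 lost it without WT XEN library A (-0.69), WT XEN library B (-0.68) or KO XEN library C4 (-0.51, adjusted p = 0.157), all by edgeR.

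Among the genes that switch the helicase on, Mcm10, Cdc45 and Gins1 were called lower in KO XEN relative to WT XEN, and Gins2, Gins3 and Gins4 were not past the test. Mcm10 (chromosome 2, 4989714 to 5012791), needed for origin melting, stood at 226, 290.1 and 285 CPM in the KO ESC libraries, 56.4 and 57.2 CPM in those of WT XEN and 17.5 and 17.0 CPM in those of KO XEN. No group overlapped another, and the KO XEN libraries were within 1 CPM of each other. Its change was log2 fold change -1.72 ± 0.17 (SE), adjusted p = 0.000299, edgeR against WT XEN and log2 fold change -3.95 ± 0.18 (SE), adjusted p = 1.89e-06, edgeR against KO ESC. Cdc45, which joins MCM and GINS in the active helicase, was at -0.90 and Gins1 at -0.87 against WT XEN. Gins2 (chromosome 8, 120578633 to 120589304), another GINS subunit, was called in none of the 3 comparisons and stood at 25.9, 28.7 and 31.9 CPM in the KO ESC libraries, 29.9 and 33.2 CPM in those of WT XEN and 20.3 and 25.9 CPM in those of KO XEN. KO ESC overlapped both XEN groups, and KO XEN lay under WT XEN without overlap, with log2 fold changes of -0.45, -0.32 and 0.13 (adjusted p = 0.101, 0.156 and 0.548 by edgeR) in KO XEN against WT XEN, KO XEN against KO ESC and WT XEN against KO ESC. Gins2 shares 2758 exon bases with Gse1 on the other strand, and the strand setting of the counting is not given in the sources used here, so that its counts may hold reads of Gse1. The same limit holds for other members that share exon bases with a gene on the other strand. Among them are Orc2 with Nif3l1 (1150 bases), Rfc5 with Wsb2 (499), Rfc4 with Eif4a2 (194) and Orc6 with Vps35 (171). With GC content in the fit Gins2 was called lower in KO XEN relative to WT XEN (-0.73) and to KO ESC (-0.68), and without KO ESC library C4 it was so too (-0.52 and -0.48). Gins3 was called lower in KO XEN against KO ESC (-1.001), a call it lost without KO XEN library C4 (-0.90, adjusted p = 0.0845 by edgeR). In WT XEN against KO ESC it was at -0.61, not past the test, and passed in 5 of 16 alternatives, among them without WT XEN library B (-0.96) and without KO ESC library C4 (-0.80). Gins4 was lower in both XEN groups against KO ESC (-1.26 and -1.13).

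Polymerase alpha-primase, which starts every new strand, held the gene with the largest decrease of the set, Pola1. All 4 genes were lower in KO XEN relative to WT XEN, with a median log2 fold change of -1.49. Pola1 (chromosome X, 93304767 to 93632155), the catalytic subunit, stood at 274, 195 and 211 CPM in the KO ESC libraries, 44.3 and 52.8 CPM in those of WT XEN and 4.14 and 6.80 CPM in those of KO XEN. In KO XEN it was far under every other library, and KO ESC C4 was the highest. It changed by log2 fold change -3.12 ± 0.28 (SE), adjusted p = 0.000228, edgeR against WT XEN, an 8.69-fold decrease, by log2 fold change -5.34 ± 0.30 (SE), adjusted p = 4.07e-06, edgeR against KO ESC, a 40.5-fold decrease, and by log2 fold change -2.22 ± 0.25 (SE), adjusted p = 0.000159, edgeR between WT XEN and KO ESC. Its gene is the longest of the 43, with 327 kb from start to end, and lies on the X chromosome. Prim1, the catalytic primase subunit, followed the same order (-1.64 and -1.69 in KO XEN against WT XEN and WT XEN against KO ESC). The partner subunits Pola2 and Prim2 were lower in KO XEN relative to WT XEN (-1.01 and -1.35), while WT XEN against KO ESC gave -0.34 and 0.05 (adjusted p = 0.158 and 0.754 by edgeR), not past the test. Without KO ESC library C4 Pola2 was called lower there (-0.52), as it was without both C4 libraries (-0.50) and with upper-quartile scaling (-0.52). Pola2 lost its call against WT XEN without KO XEN library C4 (-0.90, adjusted p = 0.0515 by edgeR).

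The subunits of polymerase delta, which extends the lagging strand, went different ways. Pold3 (chromosome 7, 100082111 to 100121565), an accessory subunit, stood at 88.3, 75.1 and 80.1 CPM in the KO ESC libraries, 54.6 and 73.6 CPM in those of WT XEN and 17.2 and 15.8 CPM in those of KO XEN. The KO XEN libraries were far under all others, and those of WT XEN lay just under KO ESC. It was lower in KO XEN relative to WT XEN (log2 fold change -1.96 ± 0.20 (SE), adjusted p = 0.00031, edgeR) and -0.34 in WT XEN against KO ESC (adjusted p = 0.116 by edgeR), not past the test. That last value was -0.57 and called lower without WT XEN library B, and was called with upper-quartile (-0.52) or no scaling (-0.44). Pold2 (chromosome 11, 5872180 to 5878292), also an accessory subunit, stood at 73.4, 80.8 and 71.6 CPM in the KO ESC libraries, 35.04 and 25.4 CPM in those of WT XEN and 46.5 and 48.3 CPM in those of KO XEN. Its KO XEN values lay between the other groups, with no overlap. It was higher in KO XEN than in WT XEN (log2 fold change 0.65 ± 0.19 (SE), adjusted p = 0.0236, edgeR) and lower in both XEN groups than in KO ESC (-0.67 and -1.32). The first call was lost without any 1 of KO ESC library 5-3_1 or 5-3_2, WT XEN library B (0.43) or KO XEN library C4 (0.68) or 5-3 (0.54), and with GC content in the fit, where the change was 0.01 (GC 58.7%). The call in KO XEN against KO ESC was lost without KO XEN library C4 (-0.63, adjusted p = 0.0635) and without both C4 libraries (-0.66, adjusted p = 0.0691), by edgeR. Pold1, the catalytic subunit, was at -0.32 (adjusted p = 0.142) between KO XEN and WT XEN by edgeR, not past the test, and passed with GC content in the fit (-1.20) and without KO ESC library C4 (-0.39). Of polymerase epsilon, which extends the leading strand, Pole and Pole2 are among the 43, and both were called lower between KO XEN and WT XEN and between WT XEN and KO ESC. Its small subunits, read with the related genes, were not called between KO XEN and WT XEN, with Pole3 at 0.21 and Pole4 at 0.42 (adjusted p = 0.313 and 0.0572 by edgeR). Against KO ESC, Pole3 was higher in KO XEN (0.43) and Pole4 lower (-1.48). Pole2 (chromosome 12, 69201773 to 69228195), its second subunit, stood at 45.3, 42.0 and 46.2 CPM in the KO ESC libraries, 18.0 and 21.7 CPM in those of WT XEN and 4.86 and 5.82 CPM in those of KO XEN. The groups were stepwise apart, with log2 fold change -1.89 ± 0.20 (SE), adjusted p = 0.000359, edgeR between KO XEN and WT XEN. The catalytic subunit Pole was at -1.45 in KO XEN against WT XEN and -1.49 in WT XEN against KO ESC, both called.

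The clamp loader RFC has 1 large and 4 small subunits, and its genes split. Rfc1 (chromosome 5, 65261850 to 65335670), the large subunit, stood at 292, 248 and 268 CPM in the KO ESC libraries, 113 and 159.9 CPM in those of WT XEN and 29.6 and 35.8 CPM in those of KO XEN. KO XEN was far under WT XEN, and WT XEN under KO ESC. It was lower in KO XEN relative to WT XEN (log2 fold change -2.06 ± 0.21 (SE), adjusted p = 0.000324, edgeR), a 4.17-fold decrease. Rfc3 (chromosome 5, 151642756 to 151651242), a small subunit, stood at 44.1, 66.0 and 70.2 CPM in the KO ESC libraries, 25.6 and 28.4 CPM in those of WT XEN and 43.7 and 47.3 CPM in those of KO XEN. The KO XEN values lay above both WT XEN values and overlapped those of KO ESC. It was higher in KO XEN than in WT XEN (log2 fold change 0.75 ± 0.23 (SE), adjusted p = 0.0312, edgeR) and lower in WT XEN than in KO ESC (-1.16), while KO XEN against KO ESC gave -0.40 (adjusted p = 0.128 by edgeR), and 0.35 with GC content in the fit. Without KO ESC library C4 that change was -0.67 and without both C4 libraries -0.53, both called lower. Leaving out any library other than KO ESC C4 ended the call against WT XEN, with log2 fold changes of 0.61 to 0.82. Rfc2 (-0.44), Rfc4 (-0.48) and Rfc5 (-0.50) were called lower by small amounts. Each of the 3 lost the call without KO ESC library 5-3_1, WT XEN library A or B, or KO XEN library C4, where the values were -0.47, -0.52 and -0.54, -0.48, -0.50 and -0.64, -0.47, -0.55 and -0.44, and -0.37, -0.41 and -0.33, and Rfc2 and Rfc4 also without KO XEN library 5-3 (-0.59 and -0.65). Rfc2 was further not called without KO ESC library 5-3_2 (-0.51), and in WT XEN against KO ESC without KO ESC library 5-3_1 (-0.45) or WT XEN library A (-0.51) or B (-0.48). Rfc4 was at 0.07 with GC content in the fit.

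Pcna (chromosome 2, 132249162 to 132253314), the clamp itself, stood at 172, 220.1 and 187 CPM in the KO ESC libraries, 53.8 and 50.2 CPM in those of WT XEN and 29.5 and 31.9 CPM in those of KO XEN. Each group lay apart, with the largest step between KO ESC and WT XEN. It was lower in KO XEN relative to WT XEN (log2 fold change -0.76 ± 0.17 (SE), adjusted p = 0.00716, edgeR) and to KO ESC (-2.65). The processed pseudogene Pcna-ps2, identical over 99.2% of 781 aligned bases, held 112% as many counts as Pcna, so how reads were split between the copies is uncertain. Summed over both, the level was 347, 448 and 432 CPM in the KO ESC libraries, 109 and 107 CPM in those of WT XEN and 55.8 and 64.0 CPM in those of KO XEN, in the same order. The call of Pcna against WT XEN was lost with GC content in the fit (-0.37, adjusted p = 0.15) and without KO XEN library C4 (-0.70, adjusted p = 0.0530), by edgeR. Lig1 (chromosome 7, 13277283 to 13311433), the ligase of the lagging strand, stood at 326, 254 and 253 CPM in the KO ESC libraries, 96.1 and 119 CPM in those of WT XEN and 48.0 and 52.6 CPM in those of KO XEN. Every step was clear of overlap, and KO XEN was lower than WT XEN (log2 fold change -1.09 ± 0.19 (SE), adjusted p = 0.00266, edgeR). The flap nuclease gene Fen1 was at -0.65 there (adjusted p = 0.068 by edgeR), not past the test, and passed it with line as a block (adjusted p = 0.0346), with GC content in the fit (-0.93) and without KO ESC library C4 (-0.72). In WT XEN against KO ESC it was at -0.47 (adjusted p = 0.107 by edgeR), and passed without KO ESC library C4 (-0.69).

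The single-strand binding complex RPA was the 1 complex with no gene called lower in KO XEN relative to WT XEN. Rpa1 (chromosome 11, 75298166 to 75348324), its large subunit, stood at 285, 503 and 497 CPM in the KO ESC libraries, 133 and 103 CPM in those of WT XEN and 275 and 265 CPM in those of KO XEN. Both KO XEN values were far above those of WT XEN and just under the lowest KO ESC value. Rpa1 was higher in KO XEN than in WT XEN (log2 fold change 1.19 ± 0.28 (SE), adjusted p = 0.0102, edgeR), a 2.28-fold increase, and lower in WT XEN than in KO ESC (log2 fold change -1.86 ± 0.27 (SE), adjusted p = 0.000613, edgeR). Without WT XEN library B the first change was 1.01 (adjusted p = 0.0731) and without KO XEN library 5-3 it was 1.13 (adjusted p = 0.0544), no longer called by edgeR. KO XEN against KO ESC gave -0.67 (adjusted p = 0.0476), which was lost with line as a block (-0.54, adjusted p = 0.0715), with GC content in the fit (-0.57) and without any 1 of KO ESC library 5-3_1 or 5-3_2, WT XEN library B or either KO XEN library (-0.58 to -0.72, edgeR). Rpa2, the middle subunit, was at 109.6, 173 and 176 CPM in the KO ESC libraries, 43.3 and 36.1 CPM in those of WT XEN and 39.3 and 42.5 CPM in those of KO XEN. The XEN groups overlapped (0.04, adjusted p = 0.905 by edgeR), and both were lower than KO ESC. Rpa3, the smallest subunit and the poorest in GC of the 43 (34.2%), was lower in both XEN groups than in KO ESC (-1.14 and -0.71). With GC content in the fit it was called higher in KO XEN than in WT XEN (1.06) and than in KO ESC (1.24), and was at 0.18 in WT XEN against KO ESC, a call also lost without any 1 of KO ESC library 5-3_1 or 5-3_2 or WT XEN library A or B (-0.58 to -0.70). A pseudogene, Gm6195, held 25.4% as many counts as Rpa3.

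The 2 subunits of ribonucleotide reductase went opposite ways. Rrm1 (chromosome 7, 102441695 to 102469771), the large subunit with the catalytic site, stood at 333, 382 and 412 CPM in the KO ESC libraries, 204 and 193 CPM in those of WT XEN and 297 and 341 CPM in those of KO XEN. The KO XEN values lay above WT XEN and reached into the KO ESC range. It was higher in KO XEN than in WT XEN (log2 fold change 0.68 ± 0.16 (SE), adjusted p = 0.01, edgeR) and lower in WT XEN than in KO ESC (-0.92), while KO XEN against KO ESC gave -0.24 (adjusted p = 0.181 by edgeR), not past the test. That last value was 0.49 and called higher with GC content in the fit, and -0.41 and called lower without KO ESC library C4. The call against WT XEN was lost without WT XEN library A (0.65, adjusted p = 0.0501), WT XEN library B (0.64, adjusted p = 0.0527) or KO XEN library 5-3 (0.50, adjusted p = 0.114), by edgeR. Rrm2 (chromosome 12, 24708241 to 24714146), the small subunit that carries the tyrosyl radical and whose level follows the cell cycle, stood at 332, 437 and 457 CPM in the KO ESC libraries, 117 and 132 CPM in those of WT XEN and 64.3 and 59.4 CPM in those of KO XEN. It fell in 2 clear steps, by 1.71 and 1.01 on the log2 scale. Tyms (chromosome 5, 30058202 to 30073617), which makes the precursor of dTTP, stood at 100.3, 113 and 111 CPM in the KO ESC libraries, 64.7 and 66.1 CPM in those of WT XEN and 33.4 and 37.2 CPM in those of KO XEN. The groups were stepwise apart as well, with log2 fold change -0.89 ± 0.15 (SE), adjusted p = 0.00222, edgeR between KO XEN and WT XEN and -0.73 between WT XEN and KO ESC.

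**Figure D2:**
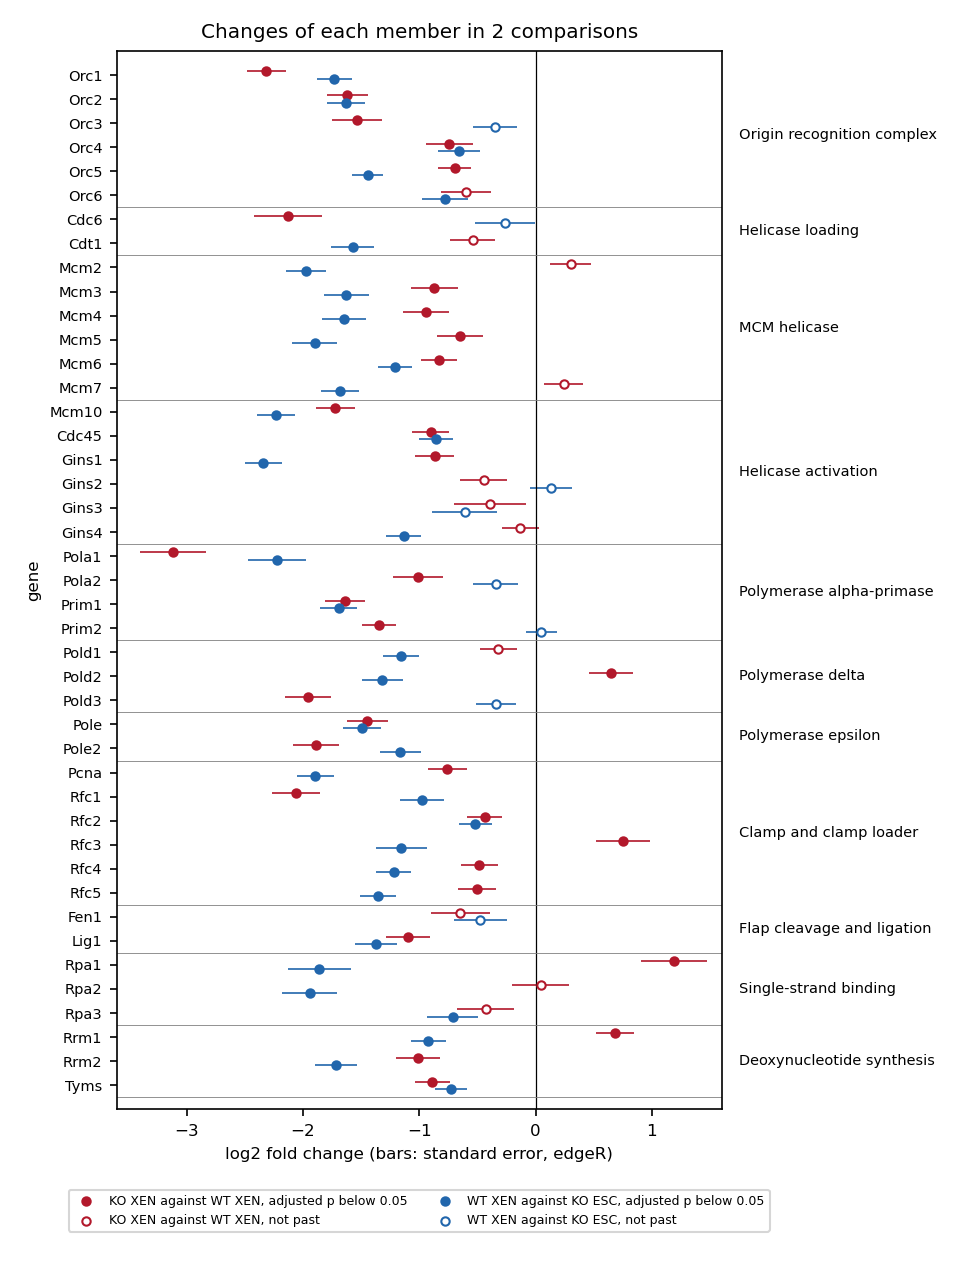
The dot plot gives the log2 fold change (horizontal axis, bars for the standard error from edgeR) of each of the 43 genes (vertical axis) in KO XEN against WT XEN (red) and in WT XEN against KO ESC (blue), with filled points for an adjusted p below 0.05. Nearly all points lie left of 0, and the 4 filled red points right of 0 are Pold2, Rfc3, Rpa1 and Rrm1, whose blue points are all filled and left of 0; the 2 comparisons share the WT XEN libraries.

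Partner subunits were then set side by side within each library, as ratios of CPM per kb of exon, where library scaling cancels. The pairs were chosen after the values were seen, so the ratios are a description with no test. Rrm2 over Rrm1 was 3.96, 4.54 and 4.40 in KO ESC, against 2.27 and 2.73 for WT XEN and 0.861 and 0.692 for KO XEN, so that Rrm2 exceeded Rrm1 per kb in every library but those of KO XEN. Rpa1 over Rpa2 was 1.397 to 1.57 in KO ESC, against 1.65 and 1.53 for WT XEN and 3.76 and 3.35 for KO XEN. Pold2 over Pold3 was 2.02 to 2.61, then 1.56 and 0.836, then 6.55 and 7.43 in the same order. In both pairs the KO XEN libraries lay above all others. Rfc1 over Rfc3 was 2.25 to 3.97 in KO ESC, against 2.66 and 3.38 for WT XEN and 0.406 and 0.454 for KO XEN. Pola1 over Pola2 was 2.04 to 4.24, then 0.678 and 0.789, then 0.136 and 0.193 in the same order, with no overlap between groups. Prim1 over Prim2 and Gins1 over Gins2 set KO ESC apart instead, at 2.96 to 3.17 against 0.728 to 1.03, and at 5.03 to 5.97 against 0.652 to 1.05, in the 4 XEN libraries.

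**Figure D3:**
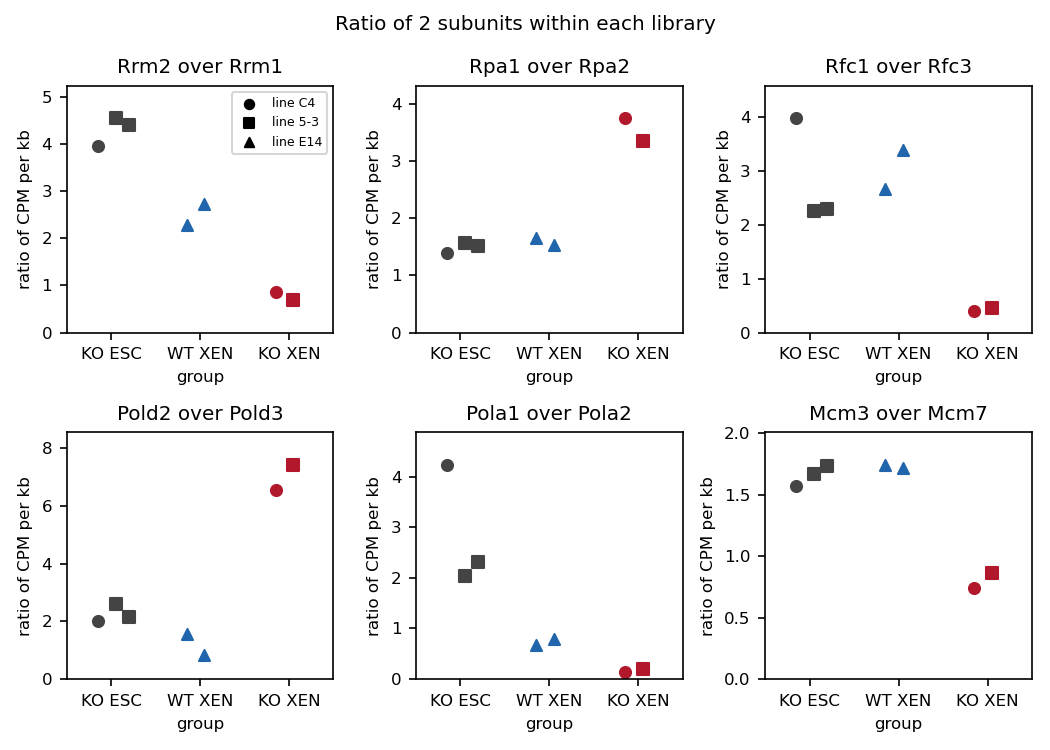
Each panel plots the ratio of CPM per kb of 2 subunits (vertical axis, from 0) in the 7 libraries by group (horizontal axis), with a circle for line C4, a square for line 5-3 and a triangle for wild-type E14. The KO XEN points are below 1 for Rrm2 over Rrm1, Rfc1 over Rfc3, Pola1 over Pola2 and Mcm3 over Mcm7, and above all other points for Rpa1 over Rpa2 and Pold2 over Pold3.

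Within the MCM ring the ratios were tighter. Mcm3 over Mcm7 was 1.57 to 1.73 in KO ESC and 1.74 and 1.72 in WT XEN, against 0.740 and 0.860 in KO XEN, and Mcm5 over Mcm2 was 1.92 to 2.06 and 2.20 and 2.04, against 1.07 and 1.12. The partners in these pairs differ little in GC content (52.6% and 53.4%, and 51.9% and 51.7%). Of the other pairs named, the gap was widest for Pold2 and Pold3 (58.7% and 48.55%), Gins1 and Gins2 (46.9% and 53.4%) and Pola1 and Pola2 (41.5% and 47.0%). The part of GC content in those ratios was not tested. Between genes, levels per kb put Mcm3 first in KO ESC and WT XEN, at 181 and 58.5 CPM per kb, with Rrm2 (147) second in KO ESC and Mcm6 (46.1) second in WT XEN. In KO XEN, Rpa1 came first at 48.4 CPM per kb, before Mcm7 (40.0) and Mcm3 (32.0), and Pola1 came last at 0.621. This order uses the length of all exons of a gene. With the length of the longest transcript, Rrm2 (56.8) and Mcm7 (50.5) stood above Mcm6 (49.4) in WT XEN, and Mcm7 (59.7) and Rrm1 (58.2) above Rpa1 (53.2) in KO XEN, while Mcm3 remained first in KO ESC and WT XEN and Pola1 last in KO XEN.

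Across the 43 genes, the log2 fold change between KO XEN and WT XEN had a Spearman correlation of -0.512 with genomic span, against 0.00217 over 18285 genes, and of 0.295 with the GC content of the longest transcript, against 0.337. For WT XEN against KO ESC these were 0.0313 and 0.169 for span and -0.100 and 0.0825 for GC. For KO XEN against KO ESC they were -0.322 and 0.141 for span and 0.148 and 0.282 for GC. Pola1, Prim2 (216 kb), Rfc1 (73.8 kb) and Orc5 (63.9 kb) are the longest genes of the set. They were all lower in KO XEN relative to WT XEN, though Orc5 was at 0.46 and not called with GC content in the fit. Pold2 (6.11 kb) and Rfc3 (8.49 kb), which were higher, are among the shorter ones, while Rpa1 (50.2 kb) and Rrm1 (28.1 kb), also higher, are not. Some short genes were called lower too, such as Pcna (4.15 kb, -0.76) and Rrm2 (5.91 kb, -1.01). These are correlations across genes of the same libraries, given as a description. The part of gene length and GC content in the results was not tested beyond the fit with GC.

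The lines C4 and 5-3 were compared within each state. The test of whether the change on differentiation differed between the lines called 0 of 18426 genes by edgeR's quasi-likelihood test (0%), with 1844 genes and 2 of the 43 at an unadjusted p below 0.05. DESeq2 gave an adjusted p to 13424 genes, among them all 43, and called 225 (1.68%) and 0 of the 43. The 2 were Pola1, with a difference between lines of -1.15 on the log2 scale, and Rpa1, with 0.86 (adjusted p = 0.408 and 0.478 by edgeR). Pola1 was at 274 CPM in KO ESC C4, above both 5-3 libraries (195 and 211 CPM), and at 4.14 CPM in KO XEN C4, below 5-3 (6.80 CPM). Of the 43 genes, 33 had lower values in C4 than in 5-3 in ES cells, with a median log2 difference of -0.23 against -0.01 over all genes, and 32 in XEN cells, with a median of -0.11 against -0.0048. C4 is a single library in each state, so these differences have no replicate check. Without both C4 libraries, 28 of the 43 genes were called between KO XEN and WT XEN, 25 of them lower, where 39.7% of all genes were called and 20.1% were lower.

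Genes that work beside the 43 were read from 4 related lists. Of 23 other replication and checkpoint genes, 17 were called lower and 1 higher in KO XEN relative to WT XEN, with a median log2 fold change of -1.29, and 20 lower and 2 higher in KO XEN than in KO ESC. The shares called lower were 73.9% and 87%, against 23.9% and 34.3% of all genes. Dbf4, the activator of the Cdc7 kinase that fires origins, stood at 224, 219.9 and 249 CPM in the KO ESC libraries, 83.3 and 90.6 CPM in those of WT XEN and 21.0 and 19.7 CPM in those of KO XEN. It was lower in KO XEN relative to WT XEN (log2 fold change -2.10 ± 0.15 (SE), adjusted p = 0.000151, edgeR), as were Wdhd1, which ties polymerase alpha to the helicase (-1.87), and the exonuclease gene Exo1 (-1.74). Pold4, the smallest subunit of polymerase delta, went against the list. It stood at 1.80, 2.95 and 2.22 CPM in the KO ESC libraries, 8.71 and 7.55 CPM in those of WT XEN and 13.9 and 17.3 CPM in those of KO XEN. It was higher in KO XEN than in WT XEN (0.94) and higher in WT XEN than in KO ESC (1.80). Of 9 genes of replication-coupled chromatin assembly, 5 were lower and 0 higher in KO XEN than in WT XEN, with a median of -0.64 and a share of 55.6% lower. All 9 were lower in both XEN groups than in KO ESC, against 34.3% of all genes for KO XEN and 30.3% for WT XEN. Hells, a chromatin remodeller, stood at 665, 678 and 842 CPM in the KO ESC libraries, 75.7 and 112 CPM in those of WT XEN and 14.8 and 19.1 CPM in those of KO XEN. It had the largest decrease of that list (log2 fold change -2.46 ± 0.25 (SE), adjusted p = 0.000314, edgeR), beside the histone chaperone gene Nasp (-1.73) and Chaf1b of the CAF-1 complex (-1.55).

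The 24 other nucleotide synthesis genes were divided, with 9 lower, 3 higher and 12 not past the test in KO XEN against WT XEN, and a median of -0.20. These shares, 37.5% lower and 12.5% higher, stand beside 23.9% and 22.3% of all genes. Shmt1, which feeds one-carbon units into thymidylate synthesis (-2.22), Ppat, the first enzyme of purine synthesis (-1.83), and the thymidine kinase gene Tk1 (-2.14) had the smallest adjusted p-values. Tk1 was higher in WT XEN than in KO ESC (0.59), unlike most of the list. Ctps, the CTP synthase gene, stood at 182, 181 and 173 CPM in the KO ESC libraries, 83.0 and 61.3 CPM in those of WT XEN and 251 and 198 CPM in those of KO XEN. It was higher in KO XEN than in WT XEN (log2 fold change 1.64 ± 0.20 (SE), adjusted p = 0.000547, edgeR), as were Adsl of the purine pathway (1.05) and Prps1, which makes the activated ribose (0.78). Against KO ESC, 19 of the 24 were called lower and 1 higher in KO XEN (79.2% and 4.17%, against 34.3% and 34.8% of all genes). In WT XEN, 20 were lower and 2 higher (83.3% and 8.33%, against 30.3% and 32.2%). Impdh1 went against the list, called higher than in KO ESC both in KO XEN (0.53) and in WT XEN (0.71).

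The 17 E2F, pocket protein and partner genes had 5 lower, 2 higher and 10 not past the test in KO XEN against WT XEN, with a median of 0.05. The share called lower, 29.4%, was near the 23.9% of all genes, and the share called higher was 11.8%, against 22.3%. Mybl2, a regulator that acts with the MuvB complex, stood at 410.2, 391 and 339 CPM in the KO ESC libraries, 75.6 and 104 CPM in those of WT XEN and 9.87 and 9.97 CPM in those of KO XEN. It was lower in KO XEN relative to WT XEN (log2 fold change -3.17 ± 0.21 (SE), adjusted p = 0.000131, edgeR), and the MuvB subunit genes Lin9 and Lin54 were lower too, with log2 fold changes of -2.06 and -2.43. These 2 were not past the test in WT XEN against KO ESC (0.19 and 0.38). The repressive E2f5 (0.64) and the pocket protein gene Rbl2 (1.02) were higher in KO XEN than in WT XEN. Another pocket protein gene, Rbl1, was lower there (-1.54), and Rb1 (-0.02), E2f4 (-0.17), E2f6 (0.27), E2f7 (0.41) and E2f8 (-0.81) were not past the test. The activating E2f1, E2f2 and E2f3 were at 0.05, 0.60 and 0.26 there, none past the test (adjusted p = 0.848, 0.158 and 0.193 by edgeR). Against KO ESC, 12 of the 17 were called lower and 2 higher in KO XEN (70.6% and 11.8%, against 34.3% and 34.8% of all genes). In WT XEN, 9 were lower and 1 higher (52.9% and 5.88%, against 30.3% and 32.2%). E2f1 and E2f2 were called lower in KO XEN (-1.13 and -2.68) and in WT XEN (-1.17 and -3.28). E2f3 was not past the test in KO XEN (-0.17) and was lower in WT XEN (-0.43).

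**Figure D4:**
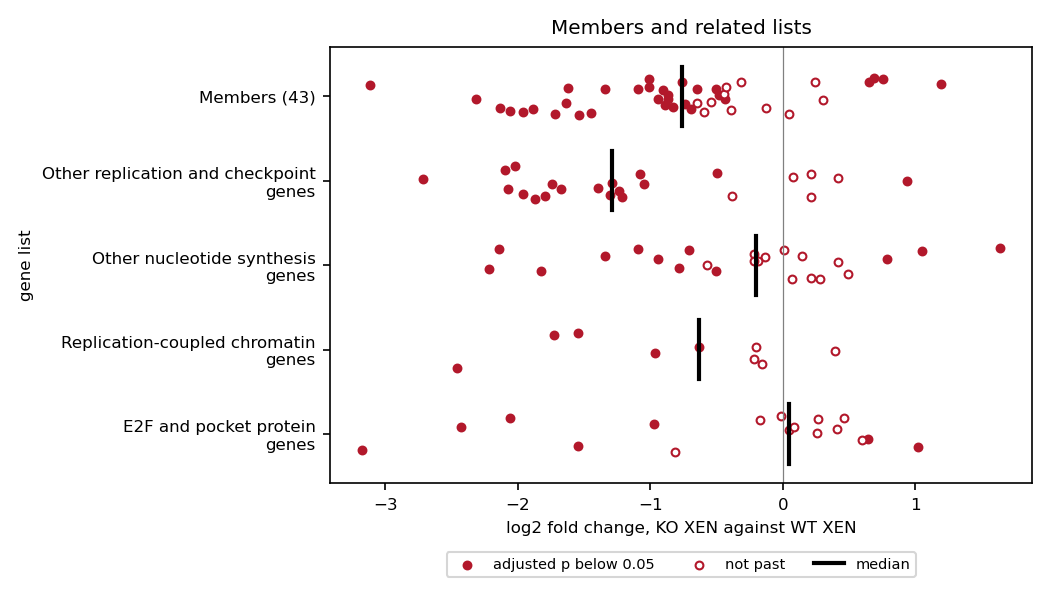
Points give the log2 fold change of each gene in KO XEN against WT XEN (horizontal axis) for the 43 genes and the 4 related lists (vertical axis, with points spread for visibility), filled where the adjusted p was below 0.05, and bars give each list's median. The median lies at -1.29 for other replication and checkpoint genes, -0.76 for the 43 genes, -0.64 for chromatin genes, -0.20 for nucleotide synthesis genes and 0.05 for E2F and pocket protein genes.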

How the data were processed

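Alignment was to mm10 with STAR 2.4.2a and counting with featureCounts 1.4.5-p1, per the submitters' processing notes. The values the authors deposited are raw read counts per Ensembl gene in 7 libraries, with no normalization. Per the labels the libraries are reverse-stranded, while the annotation release, the strand setting of the counting and any filter are not given in the sources used here. Symbols and positions come from GENCODE M21 (GRCm38, the assembly of mm10), which named 42548 of 43629 genes, and promoter sequences from RefSeq (GRCm38.p6). The 1081 genes without a symbol held 0.0954% to 0.176% of counts and stayed in the fit.

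Sample titles gave groups and lines. In R 4.3.3, edgeR 4.0.16 (with limma 3.58.1) fitted all 7 libraries in 3 groups with TMM scaling and filterByExpr by group, which set aside 25203 genes. Residual degrees of freedom were 4 and prior ones 3.92 (median), and the common biological coefficient of variation was 0.268. The standard error of a log2 fold change is its size over the square root of F. For the interaction of line with differentiation, 5 groups left 2 residual degrees of freedom. Alternatives were DESeq2 1.42.0, upper-quartile or no scaling, no filter, only the groups compared, a 2-fold minimum, line as a block, each library left out, both C4 libraries left out, and a lowess correction for GC content, added after the data were seen. The pipeline was tested on simulated counts. Lines C4 and 5-3 each have libraries in both knockout states, so the block pairs samples by the labelled line, with wild type midway. Differences between C4 and 5-3 in the ES state correlated with those in the XEN state at r = 0.0797 over 18426 genes and -0.178 over the 43.

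The 43 genes, the related lists and the tests were chosen with earlier results of these data known. Values in every library are given, by rule, for the gene of each complex with the smallest adjusted p in KO XEN against WT XEN, for each gene called higher there, for those called in opposite directions in 2 comparisons, and for those called in none with a mean of at least 10 CPM. Those of Pcna, Rpa2, Rrm2, Dbf4, Pold4, Hells, Ctps and Mybl2 were added after their values were seen. Of related lists, the 3 genes with the smallest adjusted p and those against the majority are named. E2f1, E2f2, E2f3, E2f4, E2f6, E2f7, E2f8, Rb1 and Rbl1 were added.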

Additional observations from a re-analysis of the deposited data

How the results depend on the processing

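Across 16 alternatives per gene, 21 of the 43 genes kept their direction and call in KO XEN against WT XEN, 34 in KO XEN against KO ESC and 31 in WT XEN against KO ESC. With a 2-fold minimum, 16 genes were called in KO XEN against WT XEN, 15 lower and 1 higher. The 4 higher genes there became 2 with no filter on low counts and 0 to 4 when each library was left out in turn (0 without WT XEN library B or KO XEN library 5-3), while the lower ones numbered 21 to 33. With line as a replicate block, 35 genes were called in KO XEN against WT XEN (31 lower, 4 higher), 39 in KO XEN against KO ESC and 35 in WT XEN against KO ESC, where 48.1%, 70% and 63.5% of all genes were called. Orc6, Cdt1 and Fen1 passed the test and Rpa1 lost it in the comparisons named above, and the block changed no other call. Line and genotype cannot be told apart by this block where WT XEN is compared. With GC content in the fit, 3 genes were called higher in KO XEN than in KO ESC, and 4 with the block as well. GC correction turned the sign in KO XEN against WT XEN for Orc4 (0.55, and 0.55 with the block), Orc5 (0.46 and 0.45), Mcm7 (-0.0368 and -0.0356), Rfc4 (0.0749 and 0.0733), Rpa2 (-0.11 and -0.11) and Rpa3 (1.06 and 1.06). In KO XEN against KO ESC it did so for Orc4 (0.53 and 0.53), Rfc3 (0.35 and 0.47), Rpa3 (1.24 and 1.36) and Rrm1 (0.49 and 0.55), and in WT XEN against KO ESC for Orc3 (0.14 and 0.14) and Rpa3 (0.18 and 0.30). The cause was not tested. Rpa2, near 0 in KO XEN against WT XEN, was at -0.0247 with no filter, -0.000138 with only these groups and -0.10 to 0.10 when each library was left out. Cdc6 was at 0.0068 without WT XEN library B in WT XEN against KO ESC, and at -0.55 without library A. Upper-quartile scaling put Gins2 at -0.0441 and Prim2 at -0.12 there, and no scaling put Prim2 at -0.0417. Upper-quartile scaling moved the median of all genes from -0.03 to -0.20 in WT XEN against KO ESC and from -0.08 to -0.19 in KO XEN against KO ESC, where the medians of the 43 were -1.39 and -2.00. The share of the 36 genes with TTTGGCGC, with or without TTTCCCGC, was 16.7%. With 2 libraries in each XEN group and 13941826 counts in KO XEN C4, changes near 1.4-fold, as in Rfc2, Rfc4 and Rfc5, lay at the threshold.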
